A study of Mus musculus with 6 samples.

Results

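The genes described here are the cAMP, protein kinase A (PKA) and CREB machinery, a list of 38 genes chosen by symbol for their known function. The list holds 5 adenylyl cyclases, 3 G protein alpha subunits, 6 PKA subunits, 2 PKA inhibitors, 6 PKA anchors, 6 phosphodiesterases, 3 CREB-family factors, 5 coactivators and the 2 RAP1 proteins. All 38 symbols were found among the 24589 genes of the table. Primary wild-type mouse CD8+ T cells were activated with anti-CD3 and anti-CD28. They were then exposed either to trans-vaccenic acid (TVA), which occurs in the fat of ruminants, at 20 µM or to DMSO, the control, over 24 h. Each group held 3 bulk RNA-seq libraries, 6 in all. The labels give neither strain, sex nor age of the mice, and do not say whether the libraries of a group came from separate animals, so p-values measure the spread between these libraries, which may be technical. The comparison addressed whether TVA changes the transcripts of the pathway that carries a cAMP signal to CREB.

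In this pathway a receptor coupled to the stimulatory G protein activates adenylyl cyclase, and one coupled to an inhibitory G protein restrains it. The cAMP that is made binds the regulatory subunits of PKA and frees the catalytic subunits, which phosphorylate CREB and its relatives. Phosphorylated CREB recruits the coactivators CBP and p300, and phosphodiesterases end the signal by breaking down cAMP. In T cells a strong and lasting cAMP signal is known mainly as a brake on receptor signalling, while CREB itself is needed for parts of T cell activation. Transcript levels report none of the phosphorylation steps.

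Levels are given as TPM, a unit that divides reads by transcript length and brings each library to the same total. Changes are given as TVA minus DMSO on the log2(TPM + 1) scale, which understates the change of genes at low level. Sequencing depth cannot be read from TPM, so no counting interval is given. Pearson correlations of log2(TPM + 1) between libraries, across the 10866 genes tested, lay between 0.989 and 0.999. DMSO replicate 2 correlated more closely with the TVA libraries (0.996) than with DMSO replicates 1 and 3 (0.993 and 0.994), and values without a library are given where a call turns on it. The 5 CD8 T cell markers in the table, Cd8a, Cd8b1, Cd3d, Cd3e and Cd3g, summed to between 1516 and 1638 TPM with DMSO and between 1756 and 1787 TPM with TVA. Of these Cd3g passed as higher (change 0.28, limma adjusted p 0.0063), and Cd8b1 had a change of -0.031 and did not pass. The 5 myeloid markers summed to between 34.2 and 36.7 TPM with DMSO and between 45.7 and 48.3 TPM with TVA. Each of the 5 was higher with TVA without overlap, where 27.3% of all genes tested were. Lyz2 passed the threshold (change 0.38, limma adjusted p 0.0076). Csf1r, Itgam and Cd14 did not (limma adjusted p 0.082 to 0.088), and Adgre1 was below the filter. The 4 B cell markers summed to between 11.2 and 14.9 TPM with DMSO and between 10.6 and 10.9 TPM with TVA, and the 3 NK cell markers to at most 1.08 TPM in any library. The 3 CD4 T cell markers summed to between 9.97 and 11.6 TPM (DMSO) and 8.72 and 10.4 TPM (TVA), and the 3 red cell markers to between 11.5 and 24.8 TPM (DMSO) and 7.27 and 20.5 TPM (TVA). No defining marker of these lists was at 0 in every library. The part of the myeloid difference in the results was not tested, and fewer cells of a type cannot be told apart from less RNA per cell.

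Group means of the members lay close together, and the catalytic subunit gene Prkacb was the only one to pass the test. Of the 38 genes, 33 had at least 1 TPM in at least 3 libraries and were tested. One of them, Prkacb, passed the threshold as higher with TVA and none as lower (limma, Benjamini-Hochberg adjusted p under 0.05 over all genes tested). That is 3.03% of the members tested, where 8.51% of all genes tested passed in either direction, 5.28% higher and 3.23% lower. At an unadjusted p under 0.05 there were 9 members, and the share over all genes tested was 31.8%. In 13 of the 33 members the groups did not overlap (39.4%, against 38.6% of all genes tested). Of these, 8 were higher with TVA and 5 lower, where 27.3% and 11.2% of all genes tested were. The median change of the members was 0.027, against 0.039 for all genes tested.

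The changes were small in size. Fitted changes ran from -0.20 for Akap13 to 0.16 for Prkaca, with standard errors (SE) between 0.034 and 0.082. No tested member differed by more than 13.1% between the group means in TPM. The 95% interval of the change lay within 0.2 of 0 for 17 of the 33 members, and no bound lay farther from 0 than 0.36. The direction of the calls depended on the scaling of the libraries, for the members as for the whole table. Of all genes tested, 574 of the 925 past the threshold were higher with TVA, against 292 of 754 with median-of-ratios size factors, 357 of 775 with quantile normalization and 590 of 1124 with the GC correction. With median-of-ratios size factors or the GC correction 3 members passed as lower (Adcy7, Akap13 and Pde7a) and 0 as higher. With quantile normalization 2 passed as lower (Akap13 and Pde7a) and 0 as higher.

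**Figure D1:**
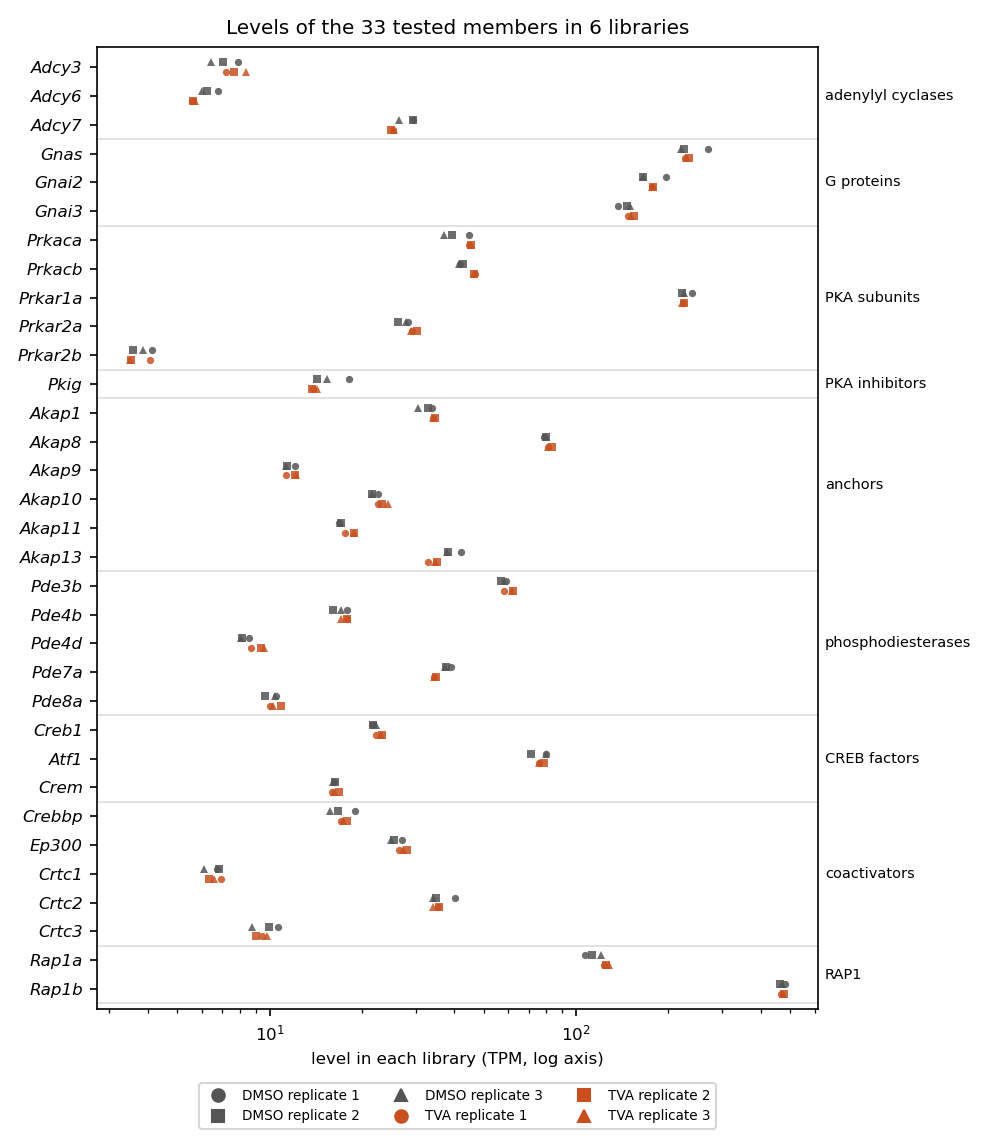
Level of each of the 33 tested members in each library, in TPM on a log axis, with DMSO in grey and TVA in orange and 1 marker shape per replicate. Rap1b, Gnas and Prkar1a were the most abundant, and within most rows the 6 points lie close together beside the spread between genes.

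The spread between libraries came mostly from the DMSO group. For 24 of the 33 members the SD was larger among the DMSO than among the TVA libraries, and the same held for 73.3% of all genes tested. The median coefficient of variation of the members was 5.21% with DMSO and 2.37% with TVA. DMSO replicate 1 was the highest of the DMSO libraries for 23 of the 33 members, and DMSO replicate 3 the lowest for 17. The members' transcripts had a GC content from 38.3% to 57.3%. Across all genes tested the change had a Spearman correlation of -0.40 with GC content, and across the 33 members of -0.31 (genes are not independent replicates). After a GC correction the changes of several members differed from the uncorrected ones given for each gene. Among the PKA subunits the corrected change was -0.095 for Prkar1a, 0.025 for Prkar2a and -0.12 for Prkar2b, and it was -0.11 for the inhibitor gene Pkig. Among the anchors it was 0.015 for Akap8, 0.036 for Akap10 and 0.035 for Akap11. It was 0.0013 for Pde4b, 0.053 for Gnai2, -0.058 for Atf1, 0.032 for Ep300, 0.062 for Crtc1, -0.015 for Crtc2 and -0.013 for Crtc3. None of these genes passed the threshold with or without the correction.

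**Figure D2:**
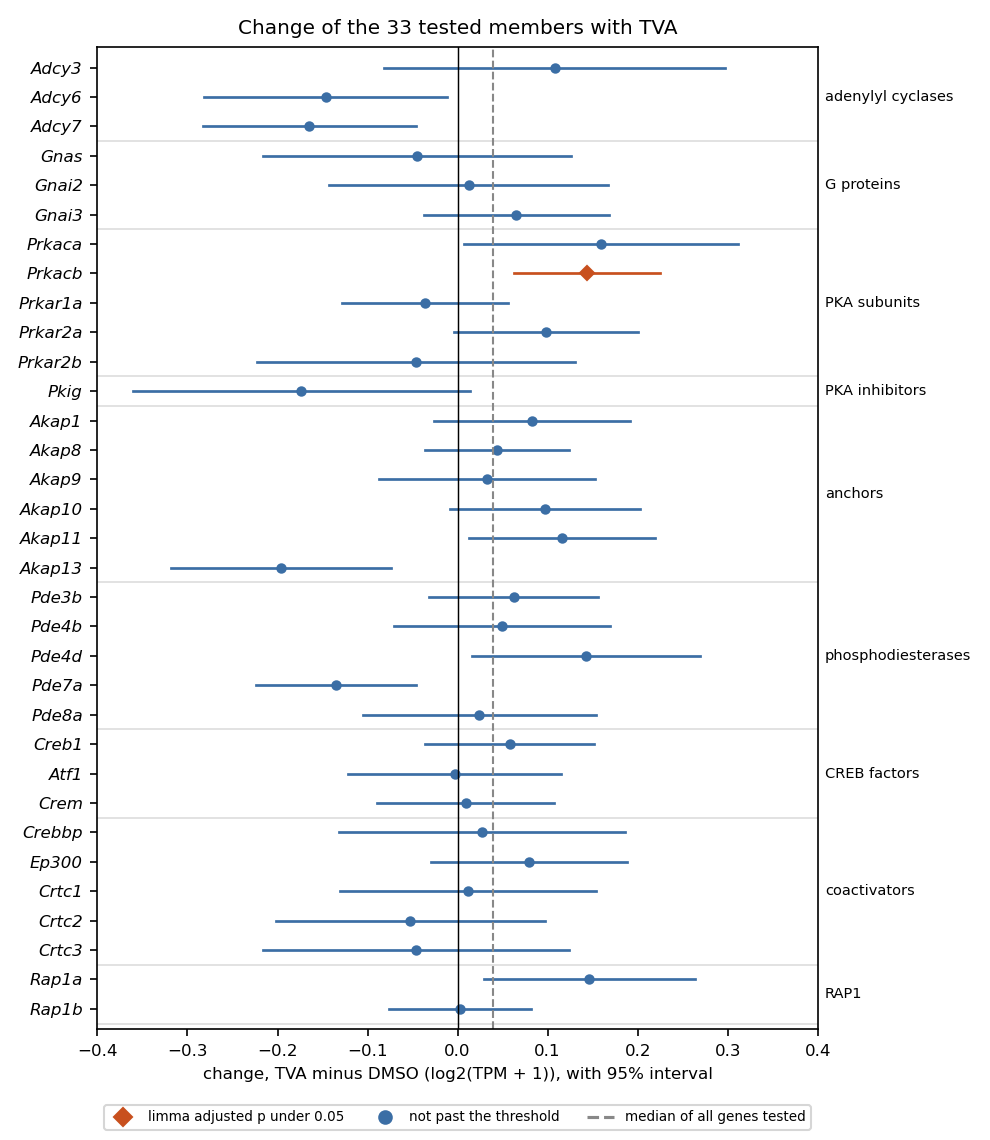
Change of each tested member, TVA minus DMSO on the log2(TPM + 1) scale, with its 95% interval from limma. Prkacb, the only member past the threshold, is drawn as an orange diamond, the solid line marks 0, and the dashed line marks the median of all genes tested (0.039).

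Among the enzymes that make cAMP, Adcy7 was by far the most abundant. This cyclase isoform is characteristic of blood cells. In the DMSO libraries its level was 29.41, 29.42 and 26.49 TPM, listed here and throughout in the order of replicates 1 to 3, and in the TVA libraries 25.26, 24.95 and 25.5 TPM. Every TVA library lay below every DMSO library, and the change of -0.16 (SE 0.051) did not pass (limma adjusted p 0.078). Under median-of-ratios scaling (0.046) and the GC correction (0.038) Adcy7 did pass as lower, and its limma adjusted p reached 0.24 in the other alternatives. Adcy6 averaged 6.36 ± 0.388 TPM in DMSO and 5.64 ± 0.062 TPM in TVA libraries (mean ± SD, n = 3, as in all values of this form), again without overlap (change -0.15, limma adjusted p 0.13). Adcy3 went the other way in its means, at 7.13 ± 0.732 and 7.75 ± 0.593 TPM, with overlapping groups (change 0.11, limma adjusted p 0.39). With a library left out its change ran from 0.045 to 0.17. Of the exonic bases of Adcy3, 22.1% are shared with Cenpo on the opposite strand, and the strand setting of the counting is not given in the sources used here. Adcy4 and Adcy9 were below the filter, at 0.48 TPM or less in each library. The 5 cyclases together summed to 42.3 ± 2.66 TPM with DMSO and 39.1 ± 0.833 TPM with TVA, with overlapping groups, and Adcy7 made up 67.3% ± 0.970 and 64.5% ± 1.016 of these sums.

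The 3 G protein genes were abundant and none passed the threshold. Gnas, which encodes the stimulatory alpha subunit, had 269.26, 225.05 and 219.98 TPM in the DMSO libraries and 227.19, 233.27 and 228.87 TPM in the TVA libraries. DMSO replicate 1 stood above the other 5 libraries. The change was -0.045 (95% interval -0.22 to 0.13, limma adjusted p 0.70), and without DMSO replicate 1 it was 0.046. Gnas is a complex locus with alternative starts and the antisense gene Nespas (0.342 TPM on average), which covers 8.83% of its exonic bases. Gnai2, the main inhibitory alpha subunit of lymphocytes, had 176.04 ± 17.7 TPM with DMSO and 176.99 ± 1.140 TPM with TVA (change 0.012, limma adjusted p 0.91). Gnai3, the second inhibitory subunit, had 137.22, 146.66 and 150.16 TPM under DMSO, against 147.78, 154.74 and 151.54 TPM under TVA, a change of 0.065 (limma adjusted p 0.34). The ratio of the summed inhibitory transcripts to Gnas was 1.35 ± 0.103 with DMSO and 1.43 ± 0.0031 with TVA, and the groups overlapped.

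The catalytic subunits carry the kinase activity of PKA, and the mean of both genes was higher with TVA. The study singled out Prkaca, Prkacb and Creb1 on these samples, so their values are no independent evidence of a direction. Prkacb, the gene of the beta subunit (chr3:146729574-146812990, minus strand, mm10), had 41.93, 42.61 and 41.44 TPM in the DMSO libraries and 46.63, 46.3 and 46.57 TPM in the TVA libraries. All TVA values lay above all DMSO values, and the mean was 10.7% higher. The change of 0.14 (SE 0.035, 95% interval 0.062 to 0.23) passed at an adjusted p of 0.048 with limma. The call held in 5 of 14 alternatives, and the adjusted p ran from 0.036 without DMSO replicate 2 to 0.18 without TVA replicate 3. Without DMSO replicate 3 the limma adjusted p was 0.094, without TVA replicates 1 and 2 it was 0.13 and 0.18, and after the GC correction the change was 0.080 (0.12). The call was also lost under quantile normalization (0.089), under median-of-ratios scaling (0.097), without the variance trend (0.064) and with replicate number as a block (0.088).

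Prkaca, the gene of the alpha subunit (chr8:83972993-83996443, plus strand), had 44.73, 39.35 and 37.17 TPM (DMSO) and 44.66, 45.26 and 45.45 TPM (TVA). DMSO replicate 1 reached the level of the TVA libraries, while the other DMSO libraries lay below all of them. The mean was 11.6% higher with TVA, close to the percentage of Prkacb, but the larger spread gave a change of 0.16 (SE 0.065) that did not pass (limma adjusted p 0.14). Without DMSO replicate 1 it passed, with a change of 0.23 (limma adjusted p 0.020). Without DMSO replicate 3 the change was 0.10. Over all alternatives but the omission of DMSO replicate 1, the limma adjusted p of Prkaca ran from 0.056 to 0.32. The ratio of Prkacb to Prkaca was 1.045 ± 0.095 with DMSO and 1.031 ± 0.012 with TVA, so the 2 genes were expressed at about the same level per length.

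The regulatory subunits hold the catalytic subunits inactive until cAMP binds. Prkar1a, the type I alpha subunit (chr11:109649405-109669656, plus strand), was the main one, with 239.3, 222.18 and 225.33 TPM in the DMSO libraries and 222.73, 225.62 and 221.18 TPM in the TVA libraries. The groups overlapped, and the change was -0.036 (95% interval -0.13 to 0.056, limma adjusted p 0.56). Prkar2a had 27.5 ± 1.030 and 29.5 ± 0.633 TPM without overlap (change 0.098, limma adjusted p 0.17). Prkar2b had 3.86 ± 0.280 and 3.71 ± 0.323 TPM (change -0.046, limma adjusted p 0.70). Prkar1b, a form best known from neurons, did not exceed 0.12 TPM in any library.

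Summed over the subunits, catalytic transcripts amounted to 86.66, 81.96 and 78.61 TPM under DMSO, against 91.29, 91.56 and 92.02 TPM under TVA. The groups did not overlap. Regulatory transcripts summed to 260.3 ± 10.2 TPM with DMSO and 256.4 ± 2.81 TPM with TVA, and overlapped. The ratio of regulatory to catalytic transcripts was 3.14, 3.08 and 3.27 with DMSO and 2.81, 2.83 and 2.76 with TVA, so each TVA library lay below each DMSO library. The difference in the mean ratio was -0.36. It was -0.43 after the GC correction, -0.35 after quantile normalization and between -0.40 and -0.31 with any library left out. This ratio does not depend on how a library is scaled by a single factor. It was formed from members described above and is given without a test.

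**Figure D3:**
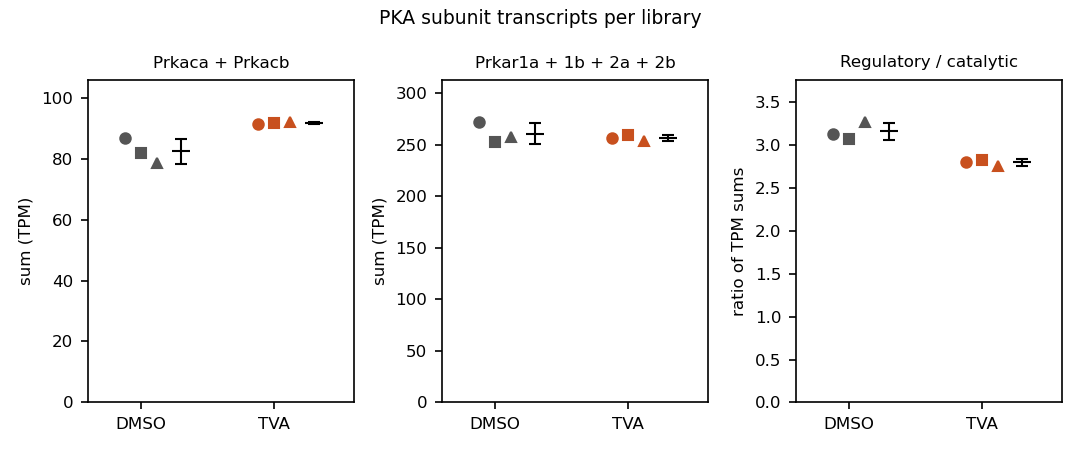
Summed TPM of the 2 catalytic and of the 4 regulatory subunit genes of PKA, and their ratio, in each library (marker shapes are replicates 1 to 3; bars show mean ± SD, n = 3; axes start at 0). The catalytic sum lies higher and the ratio lower in the TVA libraries (91.6 ± 0.369 TPM and 2.80 ± 0.038) than in the DMSO libraries (82.4 ± 4.04 TPM and 3.16 ± 0.099), without overlap, while the regulatory sums overlap.

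Promoters of both catalytic genes and of the 2 members found to hold a full cAMP response element, the sequence that CREB binds, are shown to give the letters behind the counts. RefSeq promoters of GRCm38.p6, which run from 250 bases before to 50 bases after a transcript start, were found for 30 of the 38 members (59 promoters). They were searched for the full element TGACGTCA and for its short form TGACG on either strand, which reads CGTCA on the opposite one. The full element reads the same on both strands and contains TGACG and CGTCA in overlap. Capitals mark these letters in the promoters of Prkaca (chr8:83972728-83973027, plus strand), Prkacb (chr3:146812897-146813196, minus strand), Prkar1a (chr11:109650699-109650998, plus strand) and Rap1b (chr10:117845925-117846224, minus strand), each printed in the direction of transcription.
Prkaca: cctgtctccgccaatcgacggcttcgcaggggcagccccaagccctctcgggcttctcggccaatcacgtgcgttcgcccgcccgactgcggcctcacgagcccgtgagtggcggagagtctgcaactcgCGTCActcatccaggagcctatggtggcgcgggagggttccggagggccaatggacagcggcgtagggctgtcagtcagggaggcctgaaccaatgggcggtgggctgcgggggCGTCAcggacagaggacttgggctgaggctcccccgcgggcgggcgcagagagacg
Prkacb: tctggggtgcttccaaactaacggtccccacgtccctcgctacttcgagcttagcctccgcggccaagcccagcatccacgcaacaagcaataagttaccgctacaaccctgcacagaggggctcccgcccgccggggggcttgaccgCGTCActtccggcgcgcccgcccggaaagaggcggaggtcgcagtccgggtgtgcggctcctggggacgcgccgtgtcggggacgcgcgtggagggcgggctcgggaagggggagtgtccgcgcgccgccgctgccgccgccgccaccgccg
Prkar1a: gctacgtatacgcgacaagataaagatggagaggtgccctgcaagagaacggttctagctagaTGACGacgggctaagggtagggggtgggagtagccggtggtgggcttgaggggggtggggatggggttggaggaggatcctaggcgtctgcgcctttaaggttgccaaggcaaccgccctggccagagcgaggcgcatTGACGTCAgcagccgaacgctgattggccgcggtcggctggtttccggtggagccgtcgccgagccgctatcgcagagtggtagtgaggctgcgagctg
Rap1b: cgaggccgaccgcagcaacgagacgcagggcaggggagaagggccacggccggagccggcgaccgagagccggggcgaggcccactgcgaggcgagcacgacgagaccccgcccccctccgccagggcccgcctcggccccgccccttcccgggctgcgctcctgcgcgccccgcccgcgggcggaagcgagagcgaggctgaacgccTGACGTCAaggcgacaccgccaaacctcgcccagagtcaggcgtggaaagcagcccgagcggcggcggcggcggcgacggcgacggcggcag
This Prkaca promoter holds the short form at 120 and at 6 bases before the start, and this Prkacb promoter at 102 bases before it. The other listed promoters of Prkaca and Prkacb hold none. The full element stands 49 bases before this start of Prkar1a and 42 bases before that of Rap1b. These were the only ones to hold it among the 30 members with a promoter, and the other members were not searched. Of all 32851 RefSeq promoters, 1.79% hold the full element and 20.8% the short form. Of the members' promoters, 5.08% hold the full element and 33.9% the short form, and some genes have more than 1 promoter among the 59. The 5.08% are 3 promoters of 2 genes, since 2 overlapping promoters of Prkar1a hold the same element. Neither gene with the full element passed the threshold, and the Creb1 promoter holds no short form in this window. A match is a description of these letters and not a binding site.

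Protein kinase inhibitors and anchors set where and how long PKA acts. Pkig, the gamma form of the inhibitor peptide that blocks the free catalytic subunit, had 18.13, 14.28 and 15.38 TPM (DMSO) and 13.83, 13.73 and 14.27 TPM (TVA). All TVA values lay below all DMSO values, with the nearest pair at 14.28 and 14.27 TPM, and the change of -0.17 (SE 0.081) did not pass (limma adjusted p 0.18). Without DMSO replicate 1 it was -0.082 and without DMSO replicate 2 -0.24 (limma adjusted p 0.0504). Pkia was listed at 0 in 5 of the 6 libraries and at 0.02 TPM in the other one.

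Of the 6 anchors, which tether PKA to particular sites in the cell, none passed. In 5 the groups did not overlap (4 higher and 1 lower with TVA), where 38.6% of all genes tested did not (27.3% higher and 11.2% lower). Akap8, an anchor of the nuclear matrix, was the most abundant, with 78.56, 79.72 and 79.49 TPM in the DMSO libraries and 80.82, 83.45 and 80.89 TPM in the TVA libraries (change 0.043, limma adjusted p 0.41). Akap13, which is also an exchange factor for RhoA (chr7:75455534-75754609, plus strand), had the largest change of all members. It had 42.12, 38.19 and 37.96 TPM under DMSO, against 32.93, 35.13 and 34.72 TPM under TVA, a mean lower by 13.1%. Its change of -0.20 (SE 0.053) missed the threshold with a limma adjusted p of 0.059. Akap13 did pass as lower in 4 of 14 alternatives. These were the omission of DMSO replicate 2 (limma adjusted p 0.037), median-of-ratios scaling (0.024), quantile normalization (0.027) and the GC correction (0.018), and the highest value among the others was 0.175. The other non-overlapping anchors were higher with TVA and did not pass. Akap1, the mitochondrial anchor, had 32.4 ± 1.69 and 34.4 ± 0.306 TPM (change 0.083, limma adjusted p 0.26). Akap10 had 21.9 ± 0.563 and 23.4 ± 0.891 TPM (0.097, limma adjusted p 0.19), and Akap11, an anchor of type I PKA, 16.9 ± 0.155 and 18.5 ± 0.688 TPM (0.12, limma adjusted p 0.12). Akap9, the centrosomal and Golgi anchor, had 11.6 ± 0.443 and 11.9 ± 0.475 TPM with overlap (0.032, limma adjusted p 0.69).

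The phosphodiesterases that break down cAMP were led by Pde3b, an enzyme that cGMP inhibits. It had 59.26, 57.06 and 57.99 TPM (DMSO) and 58.32, 62.27 and 61.58 TPM (TVA), and the groups overlapped (change 0.062, 95% interval -0.032 to 0.16, limma adjusted p 0.32). Pde7a, a cAMP-specific form found in T cells, came next, with 38.03 ± 0.955 TPM with DMSO and 34.5 ± 0.367 TPM with TVA. Its DMSO libraries ran from 37.41 to 39.13 TPM and its TVA libraries from 34.28 to 34.96 TPM. The change of -0.13 (SE 0.038) did not pass (limma adjusted p 0.064), but Pde7a was called as lower under median-of-ratios scaling (0.032), quantile normalization (0.040) and the GC correction (0.018). The GC-corrected change was -0.20. Its adjusted p reached 0.23 over the other alternatives. The ratio of Pde3b to Pde7a was not among the ratios set beforehand and was not tested. It did not overlap between the groups, at 1.51, 1.52 and 1.55 with DMSO and 1.70, 1.78 and 1.79 with TVA.

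Pde4d, a form that PKA itself activates, had 8.58, 8.13 and 8.05 TPM in the DMSO libraries and 8.73, 9.37 and 9.56 TPM in the TVA libraries. The TVA values lay above the DMSO values, and the change of 0.14 (SE 0.055) did not pass (limma adjusted p 0.12). Pde4b, which is recruited to the stimulated T cell receptor, had 17.02 ± 0.923 and 17.6 ± 0.465 TPM (change 0.049, limma adjusted p 0.53). Pde8a, a form with high affinity for cAMP, had 10.2 ± 0.492 and 10.4 ± 0.451 TPM (0.024, limma adjusted p 0.79). Pde4a remained under 1 TPM in each library and was not tested. The 6 phosphodiesterases summed to 132.5 ± 3.56 TPM with DMSO and 133.3 ± 3.16 TPM with TVA, with overlap.

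The CREB-family factors did not differ beyond the threshold. Creb1, the gene of CREB (chr1:64532645-64604548, plus strand), had 21.64, 21.83 and 22.23 TPM under DMSO, against 22.23, 23.26 and 23.03 TPM under TVA. DMSO replicate 3 and TVA replicate 1 had the same value, so the groups met at one point. The mean was 4.29% higher with TVA, the change was 0.058 (SE 0.040, 95% interval -0.036 to 0.15), and the limma adjusted p was 0.35. None of the 14 alternatives took Creb1 past the threshold, and after the GC correction its change was -0.0065. Atf1, a relative that forms dimers with CREB, was the most abundant of the family, with 79.54, 71.54 and 79.77 TPM (DMSO) and 75.52, 78.77 and 75.76 TPM (TVA) (change -0.0034, limma adjusted p 0.97). Of the distinct 50-base stretches in Atf1 transcripts, 12.1% also occur in transcripts of other genes, mainly its pseudogene, so its level is less certain. Crem, whose short product ICER is a cAMP-induced repressor, had 16.2 ± 0.119 TPM with DMSO and 16.3 ± 0.463 TPM with TVA (change 0.0089, 95% interval -0.090 to 0.11, limma adjusted p 0.90). The table gives Crem per gene, so ICER and the activating forms cannot be told apart. Creb1 made up 19.05% ± 0.755 of the summed transcripts of the 3 factors with DMSO and 19.7% ± 0.270 with TVA, and Atf1 66.8% ± 1.42 and 66.2% ± 0.278.

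None of the 5 coactivators passed, and the groups overlapped in each. Crtc2, a coactivator that enters the nucleus when it is dephosphorylated, was the most abundant, with 40.37, 35.04 and 34.23 TPM in the DMSO libraries and 35.41, 35.8 and 34.16 TPM in the TVA libraries. Only DMSO replicate 1 stood apart, and the change was -0.052 (limma adjusted p 0.60), or 0.019 without that library. Ep300, the acetyltransferase p300, had 27.03, 25.47 and 24.85 TPM under DMSO, against 26.51, 28.05 and 27.31 TPM under TVA (change 0.079, SE 0.047, limma adjusted p 0.28). Crebbp, the gene of CBP, had 17.1 ± 1.67 and 17.4 ± 0.428 TPM (0.027, limma adjusted p 0.80). Crtc1 had 6.57 ± 0.383 and 6.63 ± 0.300 TPM (0.012, limma adjusted p 0.91), and Crtc3 9.78 ± 0.956 and 9.42 ± 0.405 TPM (-0.046, limma adjusted p 0.69).

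RAP1 is a small GTPase that cAMP can activate through EPAC, independently of PKA, and that switches on integrins in T cells. Rap1b was the most abundant of all 38 members, with 480.28, 463.32 and 470.74 TPM (DMSO) and 466.58, 475.75 and 474.78 TPM (TVA). The groups overlapped and the change was 0.0029 (95% interval -0.076 to 0.082, limma adjusted p 0.96). Rap1a had 106.67, 112.64 and 120.98 TPM in the DMSO libraries and 123.39, 125.21 and 127.88 TPM in the TVA libraries. All TVA values were higher, and the change of 0.15 (SE 0.050) did not pass (limma adjusted p 0.10). It lay between 0.047 after the GC correction and 0.19 without DMSO replicate 3, and of its 50-base stretches 8.27% occur in other genes. Rap1a made up 19.4% ± 1.14 of RAP1 transcripts with DMSO and 21.0% ± 0.203 with TVA, without overlap.

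**Figure D4:**
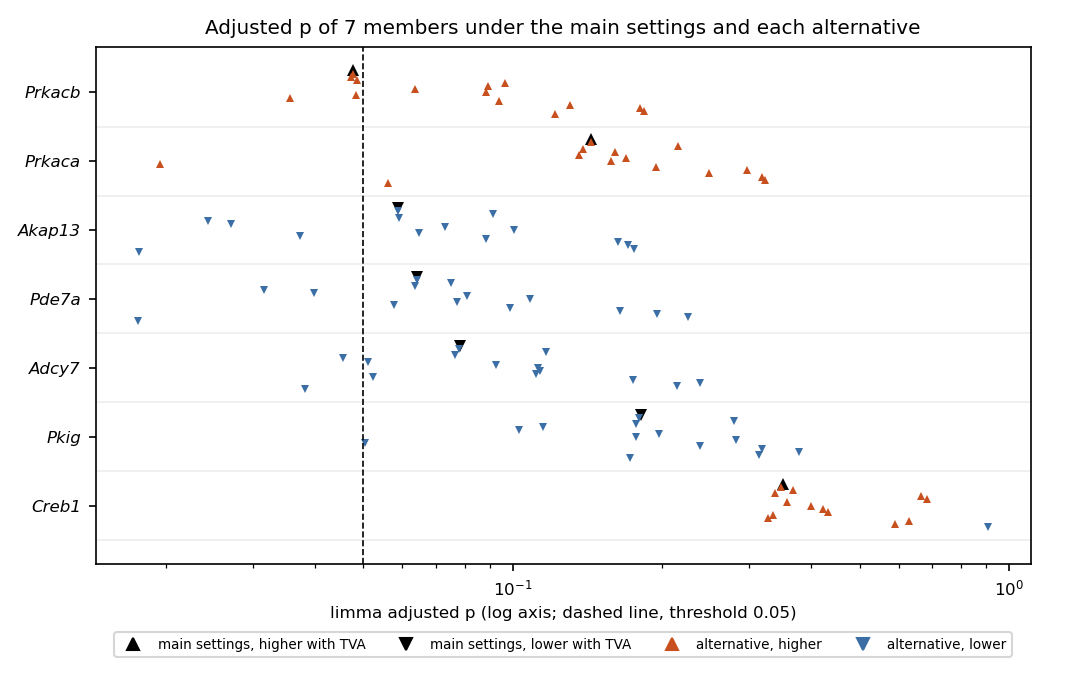
Limma adjusted p (log axis) of Prkacb, Prkaca, Akap13, Pde7a, Adcy7, Pkig and Creb1 under the main settings (black) and each alternative, with upward triangles for a change above 0 and downward triangles for one below. Prkacb lies on both sides of the threshold of 0.05, from 0.036 to 0.18, and Creb1 lies beyond it throughout, from 0.33 to 0.91.

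A further 83 genes that act around the pathway were listed by function, of which 57 were tested and 8 passed (14.04%, against 8.51% of all genes tested), 6 higher and 2 lower with TVA. None of the 8 tested cyclases and G proteins outside the main list passed, and neither did any of the 3 tested phosphodiesterase and efflux genes or the 6 genes of EPAC and RAP control. Among the 7 regulators of G protein signalling, which speed the shut-off of G proteins, Rgs10 passed. It fell from 67.03 ± 3.08 to 55.1 ± 1.80 TPM (change -0.28, SE 0.047, limma adjusted p 0.018). Among the 3 tested anchors, Akap2 rose from 4.90 ± 0.035 to 6.28 ± 0.135 TPM (0.30, limma adjusted p 0.017), but 84.4% of its exonic bases are shared with Pakap, which is listed at 0 in all libraries, so reads of the 2 genes cannot be told apart. Pag1, the membrane adaptor through which PKA restrains the T cell receptor by way of Csk, rose from 10.4 ± 0.240 to 12.75 ± 0.591 TPM (0.27, SE 0.051, limma adjusted p 0.024). Csk, at 133.5 ± 9.23 and 131.8 ± 1.11 TPM, and Lck, at 343.3 ± 15.8 and 337.03 ± 1.039 TPM, did not pass (limma adjusted p 0.85 and 0.70). None of the 8 tested CREB relatives, kinases and phosphatases that act on CREB or its coactivators passed. Of the 2 further genes tested around PKA, Prkx had a change of -0.010 (limma adjusted p 0.88). Pja2 was higher with TVA without overlap, at 15.6 ± 0.768 and 18.0 ± 0.458 TPM, and did not pass (change 0.20, limma adjusted p 0.053). Among the receptors coupled to Gs or Gi, S1pr1, the receptor for sphingosine 1-phosphate in tissue exit, rose from 10.6 ± 0.722 to 13.9 ± 0.429 TPM (0.37, SE 0.059, limma adjusted p 0.016), and the proton sensor Gpr65 was the other one of 7 tested to pass. Ptger2 and Ptger4, the prostaglandin E2 receptors coupled to Gs, and Adora2a, the adenosine receptor, did not pass, with changes of -0.15, -0.16 and -0.14. Most of these calls were lost when 1 TVA library was left out, as were most calls over all genes tested. Of all genes, 925 passed in the main result, and 125, 102 and 113 without TVA replicate 1, 2 and 3. Without DMSO replicate 3 it was 294. With a library left out the change ran from -0.31 to -0.25 for Rgs10, 0.29 to 0.31 for Akap2 and 0.24 to 0.30 for Pag1. It ran from 0.24 to 0.30 for Gpr65 and from 0.32 to 0.40 for S1pr1. Leaving out TVA replicate 1, 2 or 3 took the limma adjusted p of Rgs10 to 0.083, 0.089 and 0.089, that of Pag1 to 0.064, 0.13 and 0.12, and that of S1pr1 to 0.074, 0.086 and 0.073. For Akap2 it went to 0.072, 0.10 and 0.089, and for Gpr65 to 0.042, 0.0996 and 0.098. Leaving out DMSO replicate 3 took Rgs10 and Pag1 to 0.057 and Akap2 to 0.052.

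Among genes that CREB is known to induce in many cells, those past the threshold went in both directions. Of the 11 listed, 10 were tested, 2 passed as higher (Areg and Nr4a3) and 1 as lower (Dusp1), where 5.28% and 3.23% of all genes tested did so. The 2 higher include Areg, which met the filter only with TVA. The median change of the 10 was -0.011, against 0.039 for all genes tested. Areg, a ligand of the EGF receptor, had 0.92, 0.65 and 0.9 TPM under DMSO, against 2.87, 2.58 and 1.97 TPM under TVA. At this low level Areg met the filter of 1 TPM in 3 libraries only through the TVA group. Whether Areg was tested therefore depended on its TVA level. The groups did not overlap, and the change was 0.92 (SE 0.12, limma adjusted p 0.0075). The call of Areg was lost in 1 of 13 alternatives, without TVA replicate 2 (limma adjusted p 0.051). Areg did not enter the alternative with a mean of 10 TPM or more. Most of the others kept the same filter of 1 TPM. Dusp1, a phosphatase that shuts off MAP kinases, had 16.42, 12.72 and 14.27 TPM (DMSO) and 10.79, 11.31 and 9.79 TPM (TVA). Each TVA library was lower, and the change was -0.41 (SE 0.092, limma adjusted p 0.041). Of 14 alternatives 8 kept the call. Among the others, omitting DMSO replicate 3 gave a limma adjusted p of 0.096 and omitting TVA replicates 1, 2 and 3 gave 0.11, 0.12 and 0.15. Nr4a3, an orphan nuclear receptor gene, had 128.6 ± 4.30 and 145.3 ± 5.12 TPM (change 0.17, limma adjusted p 0.048), and 5 of 14 alternatives kept it. Omitting DMSO replicate 3 gave a limma adjusted p of 0.10 and omitting TVA replicates 1, 2 and 3 gave 0.094, 0.19 and 0.19.

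Junb did not pass, and its DMSO libraries were widely spread. It had 426.4, 198.59 and 345.65 TPM in the DMSO libraries and 185.72, 170.37 and 169.5 TPM in the TVA libraries (change -0.81, SE 0.24, limma adjusted p 0.071), and DMSO replicate 2 lay near the TVA libraries. Fos, Fosb, Egr1, Nr4a1, Nr4a2 and Per1 did not pass, with changes between -0.15 for Per1 and 0.077 for Fosb. Ppargc1a did not reach the filter.

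Of the 11 genes of this list, 10 had RefSeq promoters in the search. Egr1 was left out, so whether it holds the full cAMP response element is not known here. Among the 10, the 2 with the full element were Areg and Dusp1, and they changed in opposite directions. Their promoters, Areg at chr5:91139349-91139648 on the plus strand and Dusp1 at chr17:26508423-26508722 on the minus strand, are shown with the same letters in capitals.
Areg: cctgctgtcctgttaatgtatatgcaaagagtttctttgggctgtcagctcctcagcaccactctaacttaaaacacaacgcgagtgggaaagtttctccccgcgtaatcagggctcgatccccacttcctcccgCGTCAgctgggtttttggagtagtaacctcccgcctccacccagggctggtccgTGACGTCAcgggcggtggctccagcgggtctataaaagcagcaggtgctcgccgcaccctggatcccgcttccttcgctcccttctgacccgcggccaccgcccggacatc
Dusp1: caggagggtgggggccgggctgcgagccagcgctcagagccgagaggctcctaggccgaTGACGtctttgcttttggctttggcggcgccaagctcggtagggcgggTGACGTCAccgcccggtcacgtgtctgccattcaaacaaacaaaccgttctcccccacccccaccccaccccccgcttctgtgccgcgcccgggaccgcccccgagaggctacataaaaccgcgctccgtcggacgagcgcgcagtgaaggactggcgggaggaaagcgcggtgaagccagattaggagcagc
The element starts 61 bases before the start of Areg and 143 bases before that of Dusp1, and each promoter holds the short form once more, farther upstream.

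**Figure D5:**
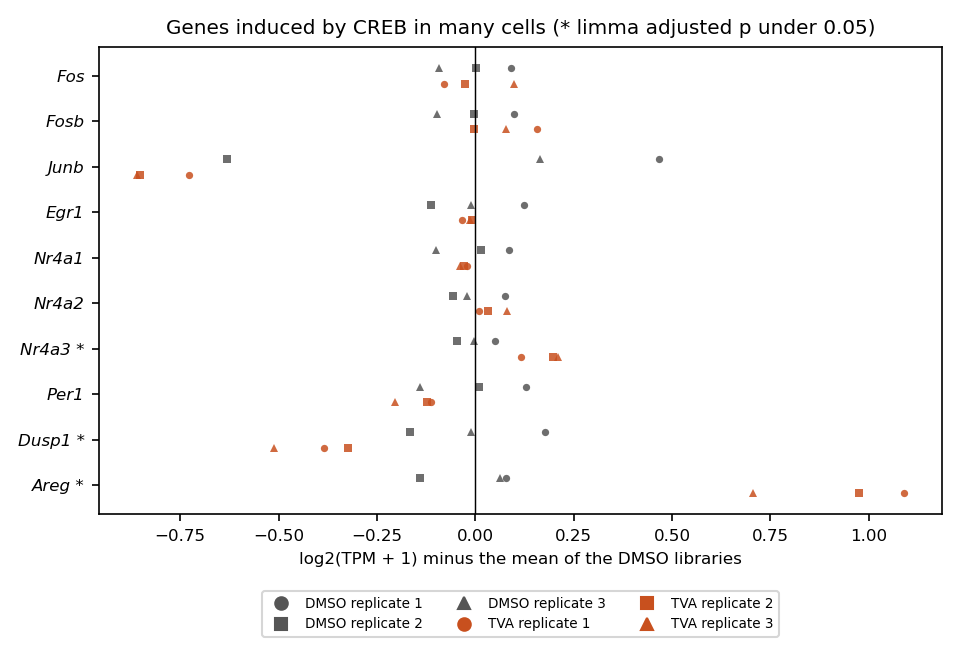
Level of the 10 tested genes that CREB induces in many cells, per library, as log2(TPM + 1) minus the mean of the DMSO libraries (grey, DMSO; orange, TVA; marker shapes are replicates 1 to 3). Areg and Nr4a3 lie to the right and Dusp1 to the left in all TVA libraries, and the DMSO libraries of Junb are widely spread.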

How the data were processed

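The members and gene lists were chosen with earlier results of these data known. RNA of activated mouse CD8+ T cells was sequenced by the authors in 3 DMSO and 3 TVA libraries. The authors deposited 1 table of TPM per gene symbol. The submitters' processing notes name STAR, RSEM and the build mm10, with no versions; the annotation and strand setting are not given in the sources used here. Per the labels libraries were made from total RNA with a SMARTER mRNA-Seq kit. Depth per library is unknown, since TPM keeps no trace of it. Columns were assigned to libraries by the name in each sample's description.

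Genes with at least 1 TPM in at least 3 libraries (10866) were tested on log2(TPM + 1) with limma 3.58.1 in R 4.3.3 (moderated variances with a trend, two-sided, Benjamini-Hochberg adjustment over all genes tested, threshold 0.05, no replicate block). The fit was tested on simulated data. Per-library values are given for members past the threshold, for Creb1, Prkaca and Prkacb, and for the member with the highest level and with the largest change in each role; other members are given by means and ranges. Of the other pathway genes, those past the threshold are named by rule, and the rest that are named were chosen after their values were seen. GC content was taken per gene as a median of its GENCODE vM21 transcripts (GRCm38, the assembly of mm10) and was known for 97.4% of genes tested. In the GC correction, deviations were smoothed on GC content by loess (span 0.5) library by library and the fit subtracted. Alternatives changed the pseudocount (0.1), the filter (any value above 0 TPM, or a mean of 10 TPM or more), the scaling (quantile normalization, or size factors by median of ratios), the variance trend (none), the block (replicate number) and the libraries (each omitted in turn). The GC correction was a further one. Gene positions and overlaps are from GENCODE vM21. Figures were drawn with matplotlib 3.10.9.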

Additional observations from a re-analysis of the deposited data

How the results depend on the processing

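The count of 1 member past the threshold (1 higher, 0 lower) held with a pseudocount of 0.1 and with both other filters (any value above 0 TPM, a mean of 10 TPM or more). It was 3 (0 higher, 3 lower) after median-of-ratios scaling, 2 (0 higher, 2 lower) after quantile normalization, 3 (0 higher, 3 lower) after the GC correction, and 0 (0 higher) without the variance trend. With a library left out it ran from 0 to 2 (0 to 2 higher, 0 to 1 lower). Between libraries of the same number, deviations from the group mean correlated at 0.16, 0.035 and -0.077. With 3 libraries per group these values cannot decide whether libraries of a number share an animal or batch. The labels do not say. With a replicate block the count was 0 members (0 higher; Prkacb had a limma adjusted p of 0.088) and 2 other pathway genes. Of all genes 925 passed in the main result (574 higher), 754 after median-of-ratios scaling (292 higher), 775 after quantile normalization (357 higher), 1124 after the GC correction (590 higher), 218 with the replicate block, 494 with any value above 0 TPM, 608 at a mean of 10 TPM or more, and 102 (without TVA replicate 2) to 2242 (without DMSO replicate 2) with a library left out. The 8 other pathway genes became 5 with any value above 0 TPM, and 0 to 13 with a library left out. The median of the members minus that of all genes, -0.012, was 0.016 with any value above 0 TPM, where all 38 members entered, and -0.025 to -0.0014 with a library left out. The cause was not tested.

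Of 456 changes of the 33 tested members under alternatives, 401 kept direction and call, 9 were weaker, 10 stronger and 36 of opposite sign. After the GC correction Akap9 was at -0.034, Creb1 at -0.0065, Crebbp at -0.0026, Crem at -0.056, Gnai3 at -0.022, Gnas at 0.0020, Pde3b at -0.039, Pde8a at -0.029 and Rap1b at -0.072. After median-of-ratios scaling Crebbp was at -0.0010, Crem at -0.020, Crtc1 at -0.014, Gnai2 at -0.018, Pde8a at -0.0035 and Rap1b at -0.027. After quantile normalization Crem was at -0.021, Crtc1 at -0.0057 and Rap1b at -0.0028. With a library left out the changes ran from -0.054 to 0.023 for Atf1, -0.028 to 0.10 for Crebbp, -0.012 to 0.025 for Crem, -0.031 to 0.039 for Crtc1, -0.096 to 0.019 for Crtc2, -0.12 to 0.011 for Crtc3, -0.029 to 0.094 for Gnai2, -0.099 to 0.046 for Gnas, -0.013 to 0.048 for Pde8a and -0.0095 to 0.016 for Rap1b. Other changes kept their sign with a library left out but varied in size. They ran from 0.010 to 0.084 for Pde4b, -0.057 to -0.0037 for Prkar1a and -0.10 to -0.0042 for Prkar2b. Those of Akap1 ran from 0.042 to 0.11, of Akap9 from 0.015 to 0.063 and of Gnai3 from 0.028 to 0.093. The ratio of regulatory to catalytic subunits was recomputed under settings chosen after seeing the data. Depth is unknown, so what it limits cannot be stated.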
